A study of Mus musculus with 26 samples.

Results

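The fatty acid elongases of the Elovl family, Elovl1, Elovl2, Elovl3, Elovl5 and Elovl6, were followed through RNA-seq libraries from mouse livers to see how far the rhythm of Elovl3 was shared by its paralogs. Members were chosen by gene symbol, which gave 11 Ensembl transcripts among 46585, and each symbol was represented by its best expressed transcript (5 of 22322 symbols). The family was selected on the RPKM of Elovl3 across genotype and time in these libraries, so its values are described below without a test, and tests are given for the 4 paralogs only.

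An elongase catalyses the first and rate-limiting step of the elongation cycle of the endoplasmic reticulum, in which malonyl-CoA adds a pair of carbons to a fatty acyl-CoA. Each paralog prefers its own acyl chains: ELOVL6 turns palmitate into stearate and palmitoleate into vaccenate, ELOVL5 and ELOVL2 lengthen polyunsaturated chains, and ELOVL1 and ELOVL3 make saturated and monounsaturated very long chains. In liver, Elovl6 and Elovl5 are known as targets of the lipogenic factor SREBP-1c, whereas Elovl3 is known for a strong daily rhythm and for higher expression in male than in female mice. BMAL1, encoded by Arntl, is the activating arm of the circadian clock, and NR1D1 (REV-ERB alpha) is a repressor that BMAL1 drives.

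In the Bmal1 experiment, mice lacking Bmal1 in the liver and wild-type controls (strain label C57BL/6 for the controls) were killed at CT0, the clock time at which lights had come on, or at CT12, with 3 livers in each of the 4 groups. In the Nr1d1 experiment, mice labelled Nr1d1 knockout and wild-type mice were killed at the same times, with 2 livers in each of the 4 groups, and the second replicate is described as paired-end sequencing. All mice were 8 weeks old and had spent 2 days in constant darkness with free access to food. The labels give neither the sex of the animals nor the driver of the liver-specific deletion, and the deleted exons are not stated. Each library is labelled as its own liver, so p-values measure the spread between livers.

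Values are RPKM, which divides the reads of a transcript by its length and by the depth of the library, and group values are given as mean ± SD. The deepest Bmal1 library had 1.66 times the depth of the shallowest, as read from the steps between low RPKM values. Arntl over its whole transcript stood at 5.73 to 7.45 RPKM in the Bmal1 knockout at CT0 against 15.7 to 16.3 in control, but at CT12 it was above control, at 3.59 to 4.37 against 0.680 to 1.26. The Nr1d1 transcript was not lower in the livers labelled Nr1d1 knockout: in replicate 1 it stood at 6.10 and 11.1 RPKM at CT0 and CT12 against 0.374 and 3.45 in control, and in replicate 2 at 32.9 and 28.4 against 22.0 and 33.4. Directions drawn from these livers therefore rest on their labels. Arntl, known as a gene that NR1D1 represses, was higher in the livers labelled knockout at CT12 in both replicates, at 8.00 against 0.597 RPKM in replicate 1 and 19.3 against 1.30 in replicate 2 (log2 differences 2.95 and 3.46). Hepatocyte markers dominated all 12 Bmal1 libraries, with a summed level of 28676 to 52670 RPKM over 8 genes, and 0 to 0.458 RPKM was found over 6 adipocyte markers, a cell type in which Elovl3 and Elovl6 are also expressed. RNA from bulk liver does not tell fewer cells of a type from less RNA per cell.

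The upstream sequences of Elovl5 and Elovl6 are shown because these genes had the widest ranges among the paralogs (4.90-fold and 35.8-fold over the 12 Bmal1 livers, and 2.75-fold and 10.01-fold without knockout replicate 1 at CT0). They are the 250 bases before the annotated gene start in RefSeq (build GRCm38.p6), chr9:77917115-77917364 for Elovl5 and chr3:129532136-129532385 for Elovl6, both on the plus strand. Capitals mark matches to 1 of 5 motifs searched on both strands: CACGTG (E-box, bound by BMAL1 complexes), AGGTCA (half-site of NR1D1), TTATGTAA (D-box), CCAAT (NF-Y box) and TCACNCCAC (sterol element).
Elovl5: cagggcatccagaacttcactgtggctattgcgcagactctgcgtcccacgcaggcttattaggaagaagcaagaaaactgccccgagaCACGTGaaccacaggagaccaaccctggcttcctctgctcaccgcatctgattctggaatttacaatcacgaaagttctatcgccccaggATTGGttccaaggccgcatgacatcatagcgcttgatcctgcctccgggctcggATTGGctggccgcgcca
Elovl6: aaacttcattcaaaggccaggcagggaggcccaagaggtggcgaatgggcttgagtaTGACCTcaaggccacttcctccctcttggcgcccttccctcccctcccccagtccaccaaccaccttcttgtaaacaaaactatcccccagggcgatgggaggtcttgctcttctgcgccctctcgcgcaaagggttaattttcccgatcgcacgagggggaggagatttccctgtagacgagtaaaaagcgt
In the Elovl5 window a CACGTG begins 161 bases before the gene start, and CCAAT lies on the opposite strand at 71 and 17 bases. In the Elovl6 window, AGGTCA occurs on the opposite strand, 193 bases before the start. Elovl1, with a pair of annotated starts, had a CCAAT match in one window and an AGGTCA match in the other, and neither Elovl2 window held any of these letters. For Elovl3 no entry matched. Among 32851 windows of the same length, 6.02% held CACGTG, 14.0% AGGTCA, 0.819% TTATGTAA, 33.8% CCAAT and 1.05% TCACNCCAC. No match overlapped another, and a match describes the letters of the window, not binding.

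Elovl3, which makes saturated and monounsaturated very long chains, had the widest range of the family across the Bmal1 libraries. Its level in control livers at CT0 was 84.5, 118 and 84.6 RPKM in replicates 1 to 3, and at CT12 it was 7.18, 7.31 and 7.13 RPKM. The groups were far apart: the mean at CT0 (95.7 ± 19.3 RPKM, n = 3) was 13.3 times that at CT12 (7.21 ± 0.09 RPKM, n = 3), a difference of -3.62 ± 0.16 (log2, SE). In the Bmal1 knockout the order of the times was turned. Knockout livers held 84.0, 97.6 and 85.9 RPKM at CT0, overlapping control, and 239, 295 and 185 RPKM at CT12, above every other library. The knockout mean at CT12 (240 ± 55.0 RPKM, n = 3) was 33.3 times the control mean (log2 difference 4.94 ± 0.16) and 2.69 times the knockout mean at CT0 (log2 difference 1.40 ± 0.16). The change from CT0 to CT12 thus differed between the genotypes by 5.02 ± 0.23 on the log2 scale. Behind these values stood 180 to 7356 reads per library at the least, counted from the steps of the RPKM values.

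**Figure D1:**
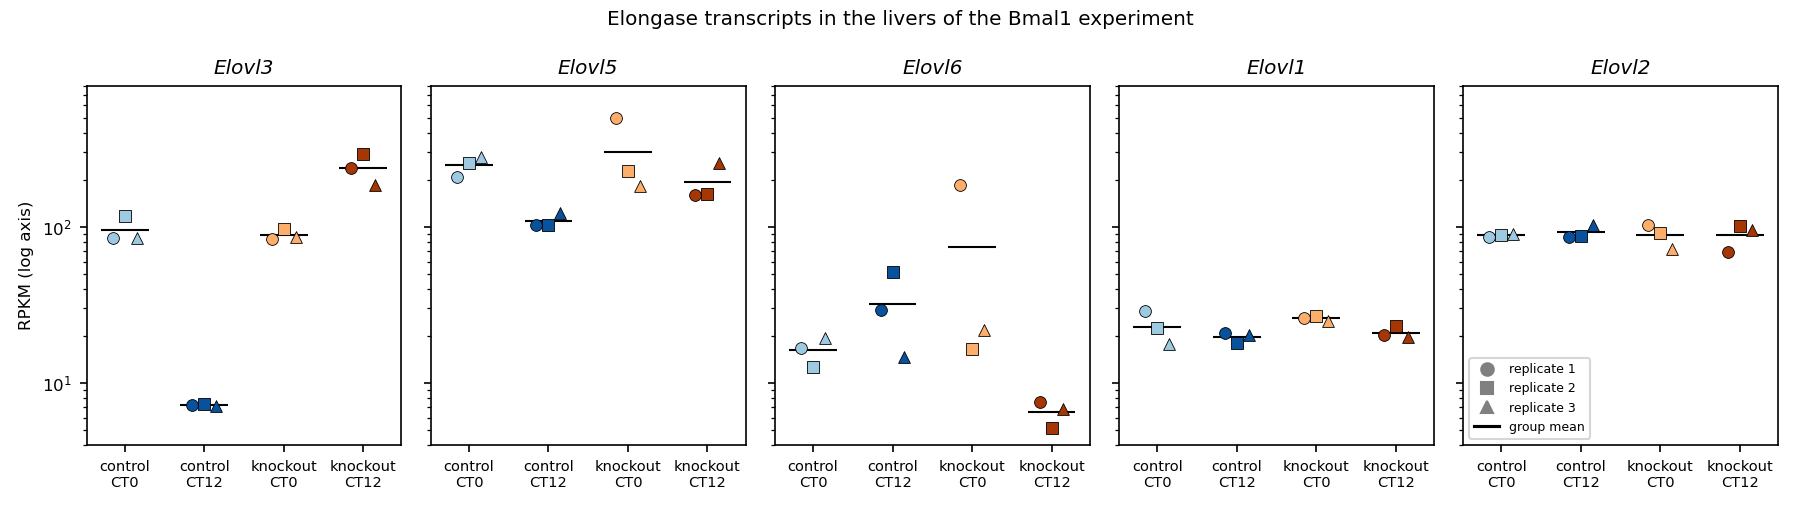
RPKM (log axis) of the 5 elongases in the 12 livers of the Bmal1 experiment, by genotype and time, with 1 symbol per replicate and a line at each group mean. Elovl3 is low in the 3 control livers at CT12 (7.13 to 7.31 RPKM) and highest in the knockout at CT12, Elovl1 and Elovl2 lie flat, and 1 knockout liver at CT0 stands out for Elovl6 (185 RPKM) and Elovl5 (501 RPKM).

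Of the 4 paralogs, only Elovl5 passed the test in any Bmal1 comparison, and it did so for time in control livers. Elovl5, which lengthens polyunsaturated acyl chains, had the highest mean of the family there by the transcript used. Its level was 208, 256 and 281 RPKM at CT0 and 103, 102 and 122 RPKM at CT12. The CT12 livers all lay below the CT0 livers. Elovl5 fell from 249 ± 36.9 to 109 ± 11.2 RPKM (n = 3 each), a log2 difference of -1.18 ± 0.31 (limma, adjusted p = 0.0310 over 11439 genes), and 10.8% of all genes tested were called in this comparison (7.43% of all were lower at CT12), so that 1 of 4 paralogs is read against that share. The direction was that of Elovl3, at -3.62. Leaving out any 1 of 5 control livers (replicates 2 and 3 at CT0, and each replicate at CT12) ended the call, with adjusted p of 0.0646 to 0.0999. Without the filter on low RPKM, adjusted p was 0.0585. Neutrophil markers moved with the same comparison: their summed level over 7 genes was 69.9 to 223 RPKM in control livers at CT0 and 19.3 to 29.1 RPKM at CT12, with 4 of 7 lower by the test. Markers of other non-hepatocyte cells had negative median log2 differences too, against -0.08 over all genes. The medians were -0.67 for Kupffer cells (1 of 8 genes lower by the test, summed level 197 to 260 RPKM in CT0 livers, 121 to 181 in CT12 livers), -0.55 for endothelial cells (1 of 5, 55.3 to 63.4 and 36.5 to 38.8 RPKM) and -0.64 for stellate cells (1 of 6, 128 to 178 and 94.0 to 110 RPKM). They were -0.88 for erythroid cells and -0.53 for cholangiocytes, each with 1 of 4 tested genes lower. The part of these markers in the Elovl5 result was not tested.

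Elovl5 in the knockout did not reach the same low level at CT12. Knockout livers had 501, 228 and 183 RPKM at CT0 and 159, 163 and 255 RPKM at CT12. The CT12 values lay above all 3 control livers at that time, whereas at CT0 the knockout livers lay above, within and below the control range. At CT12 the log2 difference from control was 0.79 ± 0.31 (limma, adjusted p = 0.138), which did not pass the test. For the change from CT0 to CT12 in the knockout it was -0.55 ± 0.31 (limma, adjusted p = 0.349), and the difference of the 2 time changes was 0.63 ± 0.43 (limma, adjusted p = 0.622), so that a different rhythm in the knockout was not shown for Elovl5.

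Elovl6, which makes stearate from palmitate, was lowest in the group in which Elovl3 was highest. It ranged from 5.15 to 185 RPKM over the 12 livers, and from 5.15 to 51.6 RPKM over the 11 without knockout replicate 1 at CT0. Its level in control was 16.7, 12.6 and 19.5 RPKM at CT0 and 29.4, 51.6 and 14.7 RPKM at CT12. In the knockout it was 185, 16.5 and 21.8 RPKM at CT0 and 7.56, 5.15 and 6.79 RPKM at CT12. The 3 knockout livers at CT12 were the lowest of the 12. Control livers overlapped between the times (log2 difference 0.80 ± 0.72, limma, adjusted p = 0.521). Against control at CT12, the knockout mean of 6.50 ± 1.23 RPKM faced 31.9 ± 18.6 RPKM (n = 3 each), with a log2 difference of -2.05 ± 0.72 (limma, adjusted p = 0.0988), and against the knockout at CT0 the difference was -2.58 ± 0.72 (limma, adjusted p = 0.0879). Neither passed the test, nor did the difference between the time changes of the genotypes, -3.37 ± 1.01 (limma, adjusted p = 0.174). Without knockout replicate 1 at CT0, the latter values were -1.49 ± 0.40 (limma, adjusted p = 0.0962) for time in the knockout and -2.29 ± 0.53 (limma, adjusted p = 0.0787) for the difference of the time changes.

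Elovl1 and Elovl2 did not pass the test in any comparison and had the narrowest ranges of the 5 genes. Elovl2, which acts on longer polyunsaturated chains than Elovl5, ranged from 69.5 to 103 RPKM over the 12 livers. All 4 group means lay between 88.4 and 92.4 RPKM, and the log2 differences in the 4 pairwise comparisons ran from -0.07 to 0.05 with an SE of 0.15. Elovl1, which makes very long saturated chains, ranged from 17.8 to 28.8 RPKM, and its log2 differences ran from -0.31 (CT12 against CT0 in the knockout, limma, adjusted p = 0.264) to 0.20 (knockout against control at CT0, limma, adjusted p = 0.602). For Elovl2 and Elovl1 the SE of 0.15 and 0.14 is small beside the Elovl3 differences at CT12. The direction of Elovl1 at CT12 between genotypes turned with TMM scaling, from 0.08 to -0.0060. Elovl4 and Elovl7, family members known from other tissues, stood at 0 to 0.0571 and 0.0123 to 0.191 RPKM in the Bmal1 livers and were not tested.

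By counts, limma called 0 of 4 paralogs for knockout against control at CT0 (1.62% of all genes were called), 0 of 4 at CT12 (9.68%), 0 of 4 for time in the knockout (1.9%) and 0 of 4 for the difference of the time changes (1.31%). At an unadjusted p below 0.05 these counts were 0, 2 (Elovl5 and Elovl6), 1 (Elovl6) and 1 (Elovl6). Over all 11439 genes the counts at that threshold were 1559, 2748, 2202 and 1356. The genotype and time comparisons share livers, so their differences are not independent of each other.

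**Figure D2:**
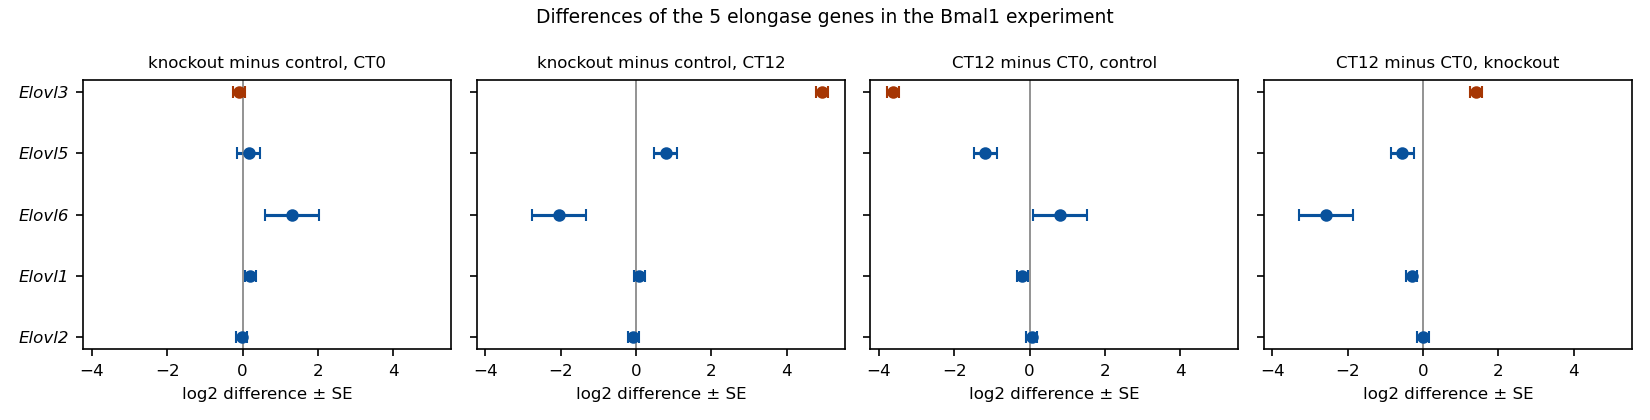
Log2 differences (x axis) with their SE from limma for the 5 elongases in the 4 pairwise comparisons of the Bmal1 experiment, Elovl3 in brown and the paralogs in blue. At CT12 between genotypes Elovl3 lies at 4.94, Elovl5 at 0.79 and Elovl6 at -2.05, while Elovl1 and Elovl2 lie at 0.08 and -0.07.

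One knockout liver at CT0, replicate 1, carried much of the spread of Elovl6 and Elovl5. Its Elovl6 level was 9.63 times, and its Elovl5 level 2.44 times, the mean of the other 2 livers of the group. Elovl1, Elovl2 and Elovl3 were not at their highest in that liver. Genes that supply palmitate and malonyl-CoA were also high there: Fasn, the fatty acid synthase, reached 536 RPKM against 34.6 to 185 in the other 11 livers, Acly, which makes cytosolic acetyl-CoA, 1059 against 81.6 to 220, and Me1, an NADPH source, 139 against 7.72 to 44.6. In all, 5 of the 6 genes of that list were highest of 12 in this liver, beside 1921 of 11439 genes tested (16.8%). Srebf1, which encodes SREBP-1c, stood at 104 RPKM, just under the highest of the other 11 livers (31.4 to 106). That was 1.31 times the mean of the other 2 livers of the group. Of 5 desaturase genes, 2 were highest of 12 in this liver, among them Scd1, at 4066 RPKM against 275 to 1928.

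Without that liver, the knockout at CT0 had 19.2 ± 3.78 RPKM of Elovl6 and 205 ± 31.9 RPKM of Elovl5 (n = 2). The log2 differences at CT12 between genotypes are not altered by it, but with the smaller pooled spread both paralogs were called: Elovl5 at 0.79 (limma, adjusted p = 0.0181) and Elovl6 at -2.05 (limma, adjusted p = 0.00396). A fit of the CT12 livers alone called both as well, with adjusted p of 0.0382 and 0.0174. The share of all genes called in these fits is not reported here, and the main fit called 9.68% for genotype at CT12. Elovl5 was higher, and Elovl6 lower, in 3 of 3 knockout livers than in any control liver at that time. Markers of other cells differed between the same groups: the summed level of 7 neutrophil markers was 19.3 to 29.1 RPKM in control and 48.6 to 131 in the knockout at CT12 (2 of 7 rose, S100a8 and S100a9), that of erythroid markers was 95.2 to 169 and 207 to 259 RPKM (1 of 4 tested rose, Hbb-b2), and that of cholangiocyte markers was 27.2 to 49.97 and 88.4 to 124 RPKM (2 of 4 tested rose, Spp1 and Sox9, whereas Krt19 and Epcam had log2 differences of -0.03 and 0.14). Not all cell types did so: 0 of 8 Kupffer cell markers were called (121 to 181 RPKM in control, 131 to 223 in the knockout). For endothelial cells 0 of 5 were called (36.5 to 38.8 and 30.3 to 63.5 RPKM). For stellate cells it was 0 of 6 (94.0 to 110 and 118 to 153 RPKM). The part of these markers in the elongase differences was not tested. The Elovl5 difference between genotypes at CT0 turned without that liver, from 0.16 to -0.27 (limma, adjusted p = 0.675).

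**Figure D3:**
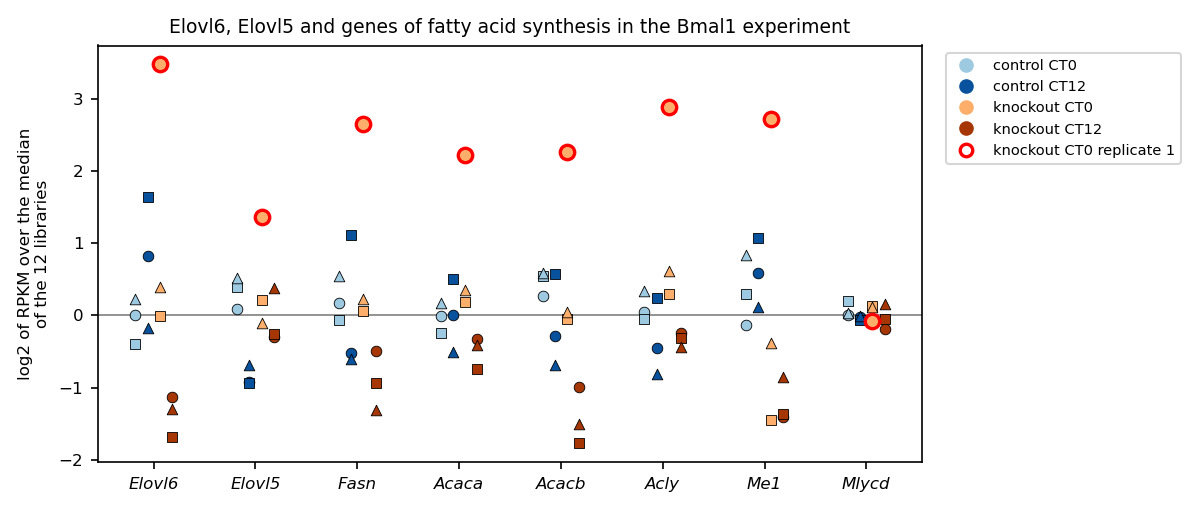
Log2 of RPKM over the median of the 12 Bmal1 libraries (y axis) for Elovl6, Elovl5 and the 6 genes of palmitate and malonyl-CoA supply, coloured by group, with knockout replicate 1 at CT0 circled in red. That liver is highest for Elovl6, Elovl5, Fasn, Acaca, Acacb, Acly and Me1, and not for Mlycd.

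The make-up of the family changed with genotype and time. Elovl3 gave 17.1 to 23.7% of the summed RPKM of the 5 genes in control livers at CT0, 2.67 to 2.91% at CT12, 9.35 to 22.2% in the knockout at CT0 and 33.0 to 50.2% in the knockout at CT12. Elovl5 ranked first by mean in 3 of the 4 groups, and in the knockout at CT12 Elovl3 stood first (240 ± 55.0 against 193 ± 54.3 RPKM), with overlapping livers. RPKM is a level per length, so genes can be set side by side, but the order and the shares depend on the transcript taken. For Elovl5 the one used had a mean of 214 RPKM over the Bmal1 libraries, against 146 and 129 RPKM for its other transcripts. In control at CT0, Elovl5 (249 RPKM) lay apart from Elovl3 (95.7), which overlapped Elovl2 (88.8), and Elovl1 (23.0) overlapped Elovl6 (16.3). At CT12 in control, Elovl5 (109) overlapped Elovl2 (92.4), Elovl6 (31.9) overlapped Elovl1 (19.7), and Elovl3 (7.21) lay below both. In the knockout at CT12, Elovl2 (88.6), Elovl1 (21.0) and Elovl6 (6.50) followed in that order without overlap. In the knockout at CT0, Elovl5 (304) lay apart from Elovl3 (89.2), and the remaining neighbours in the order overlapped, with Elovl6 spanning 16.5 to 185 RPKM.

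**Figure D4:**
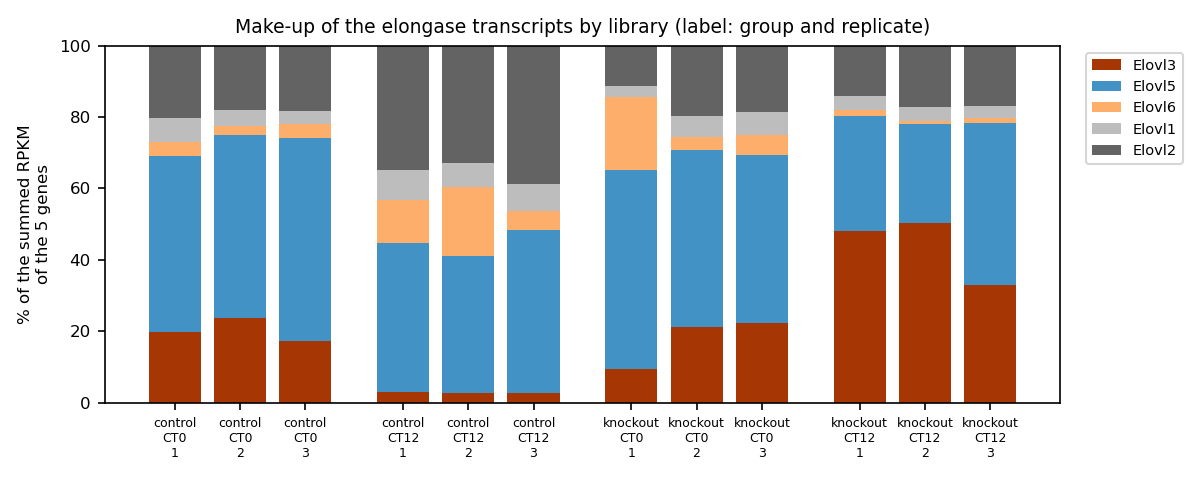
Percent of the summed RPKM of the 5 genes (y axis) held by each elongase in each of the 12 Bmal1 libraries, labelled by group and replicate. The Elovl3 share is 2.67 to 2.91% in control at CT12 and 33.0 to 50.2% in the knockout at CT12.

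Of 6 partners of the elongation cycle, genes of its later steps (Hsd17b12, Tecr and the dehydratases Ptpla, Ptplb, Ptplad1 and Ptplad2), limma called 0 for genotype at CT0 or CT12, where 1.62% and 9.68% of all genes were called. At an unadjusted p below 0.05, 1 was counted at each time, beside 1559 and 2748 of 11439 genes. The median log2 difference was 0.15 and 0.09 against 0.01 and 0.09 over all genes. Between the times in control, where 10.8% of all genes were called, 1 rose (Ptplad1, 0.33 ± 0.09, limma, adjusted p = 0.0360) and 1 fell (Ptplad2, -0.60 ± 0.17, limma, adjusted p = 0.0440), and both calls ended with the replicate block. Leaving out any control liver at CT0, or replicate 2 or 3 at CT12, ended the Ptplad1 call, and leaving out any of the 6 control livers, the third knockout liver at CT0 or any knockout liver at CT12 ended the Ptplad2 call. Ptplad2 lay at 0.445 to 1.47 RPKM in control livers.

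Among 5 desaturases, which place double bonds in the same chains, 1 rose at CT0 in the knockout (0.909% of all genes rose) and 1 rose and 1 fell at CT12 (6.46% and 3.22% of all genes). Without knockout replicate 1 at CT0, Scd1, the main stearoyl-CoA desaturase of liver, was called as well, so that 2 of 5 fell at CT12. In the main fit 3.22% of all genes fell there, and the share without that liver is not reported here. Scd2, a stearoyl-CoA desaturase, rose at CT0 (1.35 ± 0.21, limma, adjusted p = 0.00861) and CT12 (1.25 ± 0.21, limma, adjusted p = 0.00295). Fads2, the delta-6 desaturase that works with Elovl5 and Elovl2, stood at 264 to 334 RPKM in control and 123 to 148 RPKM in the knockout at CT12. It fell there by 1.07 on the log2 scale (SE 0.14, limma, adjusted p = 0.000496), without overlap between the groups. In control livers Fads2 rose from CT0 to CT12 (0.78 ± 0.14, limma, adjusted p = 0.00489), the opposite direction to Elovl5.

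Of the 6 genes of palmitate and malonyl-CoA supply, limma called 0 in each of the 5 Bmal1 comparisons. At an unadjusted p below 0.05 it counted 2 for genotype at CT0 and at CT12, 0 for time in control, 4 for time in the knockout and 1 for the difference of the time changes. Over all 11439 genes these counts were 1559, 2748, 3019, 2202 and 1356. The medians were 0.52 (CT0) and -0.69 (CT12) between genotypes and -1.53 for time in the knockout against -0.0049 over all genes. Without knockout replicate 1 at CT0 the medians were -0.016 at CT0 and -0.77 for time in the knockout. In that fit, 2 of the 6 fell at CT12 in the knockout: Acacb, the acetyl-CoA carboxylase of mitochondria (-1.21 ± 0.27, limma, adjusted p = 0.0151), and Me1 (-1.75 ± 0.32, limma, adjusted p = 0.00493). The share of all genes that fell in that fit is not reported here, and in the main fit it was 3.22%. Of 9 regulators of elongase genes, 1 fell at CT0 in the knockout (0.708% of all genes fell), and at CT12 1 rose and 3 fell (6.46% and 3.22% of all genes). Without knockout replicate 1 at CT0, 0 of the 9 were called at CT0 and the CT12 counts were the same. Srebf1 fell at CT12 (-1.003 ± 0.21, limma, adjusted p = 0.00985), as did Mlxipl, which encodes the carbohydrate-response factor ChREBP (-0.96 ± 0.23, limma, adjusted p = 0.0208), a call that ended without control replicate 2 or knockout replicate 2 or 3 at CT12. Ppara, a nuclear receptor for fatty acids, fell at CT0 (-0.63 ± 0.12, limma, adjusted p = 0.0253) and CT12 (-1.06 ± 0.12, limma, adjusted p = 0.000167). The CT0 call for Ppara ended without any 1 of 5 of the compared livers. Of these regulators, 1 rose: Insig2, which holds SREBP precursors in the endoplasmic reticulum, had 14.0 to 28.1 RPKM in control and 152 to 281 RPKM in the knockout at CT12 (3.32 ± 0.25, limma, adjusted p = 6.04e-06).

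Among clock factors, Nr1d2, the paralog of Nr1d1, fell at CT12 (-2.07 ± 0.24, limma, adjusted p = 0.000187), and Dbp, a D-box activator, fell at CT12 (-2.10 ± 0.29, limma, adjusted p = 0.000703). Nr1d1 itself fell at CT0 (-1.94 ± 0.37, limma, adjusted p = 0.0252) and was not called at CT12. The CT0 call for Nr1d1 ended without knockout replicate 1 or 2 at CT0. It also ended without the filter on low RPKM (limma, adjusted p = 0.0587) and with the CT0 livers alone (limma, adjusted p = 0.101). Of 8 hepatocyte markers, 1 was called, Alb, which was lower in the knockout at both times (-0.93 ± 0.14 and -1.05 ± 0.14, limma, adjusted p = 0.00709 and 0.000528). Of all genes, 0.708% were called lower in the knockout at CT0 and 3.22% at CT12. The median over the 8 was -0.03 at CT0 and -0.04 at CT12, against 0.01 and 0.09 over all genes, and the part of Alb in the elongase differences was not tested.

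Genes with the Elovl3 profile lay outside the family. Over the 12 Bmal1 livers, likeness was measured as the root mean square difference of centred log2 values, given without a test. The 5 nearest of 11438 genes were Spon2 (0.77), an extracellular matrix protein, Insig2 (0.79), Npas2 (0.83), a clock partner of BMAL1, Loxl4 (0.87), a lysyl oxidase, and Clpx (0.90), a subunit of a mitochondrial protease. Elovl5 came 311th (1.55), Elovl1 4044th (1.78), Elovl2 8387th (1.88) and Elovl6 11402nd (2.69). For a gene that hardly varies, this distance is set mostly by the variation of Elovl3 itself. The gap in rank between Elovl1 and Elovl2, which lie close in distance, is therefore not a graded likeness to Elovl3. Insig2 and Clpx were abundant, and at CT12 Clpx had 31.0 to 38.2 RPKM in control against 177 to 245 RPKM in the knockout. None of the 5 nearest genes was 2.69 times higher at CT12 than at CT0 in the knockout, as Elovl3 was: Clpx, whose group means there were 203 and 192 RPKM, was the only one with a higher mean at CT12.

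In the Nr1d1 experiment Elovl3 was high in 2 of the 8 livers. In replicate 1 it stood at 214 RPKM in control at CT0, 1.28 in control at CT12, 65.9 in the liver labelled knockout at CT0 and 2.62 in the one at CT12. In replicate 2 the same groups had 3.23, 5.35, 9.22 and 3.28 RPKM. Only the 2 CT0 livers of replicate 1 were high. These were also the only livers with more than a trace of Y-linked transcripts: the summed level of Ddx3y, Eif2s3y, Kdm5d and Uty was 20.6 and 19.1 RPKM in them, 0 to 0.168 RPKM in the other 6, and 60.9 to 75.4 RPKM in all 12 Bmal1 livers. This list was added after its values had been seen. Time and the presence of Y-linked transcripts therefore cannot be told apart for Elovl3 in replicate 1, and in replicate 2, where Y-linked transcripts were near 0 throughout, Elovl3 was 0.65 higher at CT12 than at CT0 in control on the log2 scale and in the livers labelled knockout the same difference was -1.36.

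**Figure D5:**
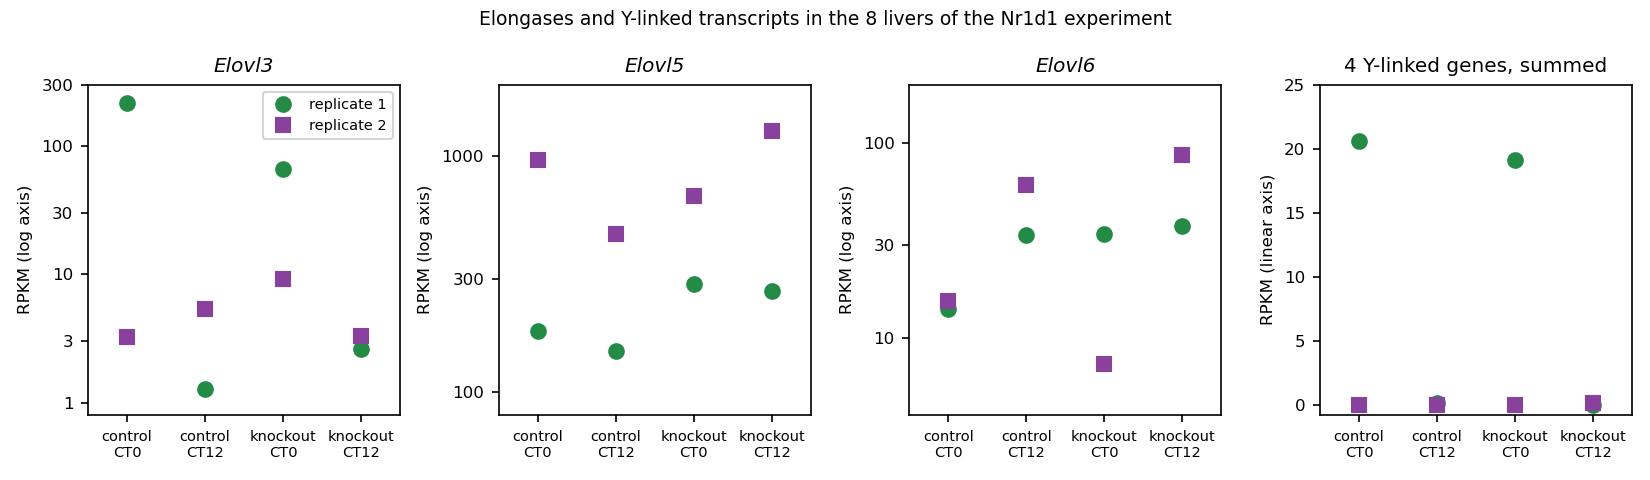
RPKM of Elovl3, Elovl5 and Elovl6 (log axes) and summed RPKM of 4 Y-linked genes (linear axis) in the 8 livers of the Nr1d1 experiment, replicate 1 as green circles and replicate 2 as purple squares. Elovl3 is above 10 RPKM only in the 2 livers of replicate 1 at CT0, which are also the ones with Y-linked transcripts near 20 RPKM.

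Levels were compared only within a replicate, since Elovl1 was 5.78 to 7.89 times higher in replicate 2 than in replicate 1 in every group. The RPKM summed over all transcripts differed too, at 1185872 to 1722127 in replicate 1 and 4680266 to 5075351 in replicate 2. The differences within a replicate are not corrected for these sums. Between the labelled genotypes at CT12, the Elovl3 difference was 0.81 (log2) in replicate 1 and -0.63 in replicate 2. The 5 genes nearest to Elovl3 in the Bmal1 livers were lower at CT12 in control and higher in the livers labelled knockout at CT12 in both replicates, for example Insig2 by 2.31 and 1.20 and Clpx by 1.97 and 0.80 in the latter. Elovl3 had the same directions in replicate 1 (-6.91 for time in control and 0.81 between the labelled genotypes at CT12). In replicate 2 it had the opposite ones (0.65 and -0.63), so it followed these genes in replicate 1 only.

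Between the labelled genotypes at CT12, Elovl1, Elovl5 and Elovl6 were higher in the livers labelled knockout in both replicates, and Elovl5 by the most. The share of all genes that were higher in both replicates is not reported here. With the replicate as a block, the median log2 difference over all genes was 0.04. At CT12 its level was 150 RPKM in control and 269 in the liver labelled knockout in replicate 1, and 467 and 1276 RPKM in replicate 2. The Elovl5 differences were 0.84 and 1.45 on the log2 scale, those of Elovl1 0.47 and 0.20 and those of Elovl6 0.15 and 0.52. With the replicate as a block, the Elovl5 difference was 1.15 ± 0.29 (limma, adjusted p = 0.580 over 12738 genes), which did not pass the test. At CT0 the replicates went in opposite directions (0.65 and -0.50).

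Elovl6 was higher at CT12 than at CT0 in control in both replicates, from 14.1 to 33.7 RPKM and from 15.4 to 60.8 RPKM. In the livers labelled knockout it went from 34.3 to 37.5 RPKM in replicate 1 and from 7.32 to 87.2 RPKM in replicate 2. The direction was the same in both replicates and the size was not. With the block, the time difference was 1.59 ± 0.68 in control (limma, adjusted p = 0.610) and 1.81 ± 0.68 in the livers labelled knockout (limma, adjusted p = 0.307), where TMM and quantile scaling moved the median of all genes by -0.14 and -0.18, and the latter sign is opposite to that in the Bmal1 knockout. Replicate 1 at CT0 is again the time at which Y-linked transcripts were present. Elovl1 differed by -0.44 to 0.47 and Elovl2 by -0.44 to 1.10 (log2) across the within-replicate comparisons.

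No paralog was called in any Nr1d1 comparison. Without a block, limma called 0 of 12738 genes (0%) in each of the 5 comparisons, and at an unadjusted p below 0.05 it counted 0, 4, 12, 7 and 0 genes for genotype at CT0 and CT12, time in control, time in the livers labelled knockout and the difference of the time changes, with no paralog among them. With the block the calls were 0 (0%), 5 (0.0393%), 45 (0.353%), 7 (0.055%) and 0 (0%), again with no paralog. At an unadjusted p below 0.05 with the block, Elovl5 was counted for genotype at CT12 and for the difference of the time changes, Elovl6 for time in control, and Elovl2 and Elovl6 for time in the livers labelled knockout. Over all 12738 genes these counts were 575 and 579 for genotype at CT0 and CT12, and 538 for the difference of the time changes. For time they were 1031 in control and 1833 in the livers labelled knockout.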

How the data were processed

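TruSeq RNA libraries of 20 livers were used; the 4C libraries were not used here. The authors deposited RPKM per Ensembl transcript (TopHat2, Bowtie and bedtools 2.19.1 with build mm9, per the submitters' processing notes; Bowtie is absent from the notes on Nr1d1 replicate 2); annotation, strand setting and read filters: not given in the sources used here. Groups come from the sample titles. For each symbol the best expressed transcript was taken. Tests used limma 3.58.1 with a mean trend on log2(RPKM + 0.5), which understates changes of low genes, with 4 group means per experiment, genes of mean RPKM at least 0.5, and Benjamini-Hochberg adjustment over all genes, called below 0.05. Scripts were tested on simulated data. Members and lists were chosen with earlier results of these data known. Named genes were the members, the 2 targeted genes, called genes of the lists (some results are not reported here) and the 5 nearest to Elovl3. Libraries of the same number deviated together in the Nr1d1 experiment (correlations 0.82 to 0.88, 12 pairs). With 2 livers per group, the pairs of replicate 2 repeat the values of replicate 1 by construction. Replicate 2 is labelled paired-end, so the number marks a batch and blocked values are given. Alternatives were other pseudocounts, no filter, TMM and quantile scaling of the RPKM values, summed transcripts, the replicate block, the compared groups alone and each liver left out.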

Additional observations from a re-analysis of the deposited data

Results flagged for a closer look

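The change of Elovl3 from CT0 to CT12 went down in control livers and up in Bmal1 knockout livers, a difference of 5.02 on the log2 scale. All control livers at CT12 lay below all control livers at CT0, and all knockout livers at CT12 lay above all knockout livers at CT0. The difference was not tested, because this pattern led to the choice of the genes.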

How the results depend on the processing

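For time in control livers, the number of paralogs called went from 1 to 0 without the filter on RPKM, and from 0 to 1 over the fits that leave out a liver. For genotype at CT12 it went from 0 to 2 with the compared groups alone, where fewer livers set the spread, and was 0 to 2 over the fits that leave out a liver; for time in the knockout it was 0 to 1. No other count of called paralogs changed in either experiment. The direction of Elovl1 for genotype at CT12 turned with TMM scaling (-0.0060). Leaving out 1 liver gave ranges across 0 for Elovl2 (-0.14 to 0.12 for genotype at CT0, -0.18 to 0.092 at CT12, -0.030 to 0.10 for time in control and -0.14 to 0.17 in the knockout) and for Elovl5 for genotype at CT0 (-0.27 to 0.45). Elovl3 kept its value within the spread of replicates in all 99 fits of its 5 Bmal1 comparisons. With the replicate block in the Bmal1 experiment, where same-numbered livers did not deviate together (correlations -0.06 to 0.12 over 18 pairs), the count of called paralogs stayed at 1 for time in control livers (Elovl5, limma, adjusted p = 0.0485) and at 0 in the other Bmal1 comparisons; in the Nr1d1 experiment it stayed at 0. The members had at least 180 reads in every Bmal1 library, and precision is limited by groups of 3 and 2 livers.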
